A study of Mus musculus with 4 samples.

Results

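The fragments described here come from tRNA-Met, the transfer RNA that carries methionine, and were read in small RNA libraries of mouse sperm. They were chosen by rule as distinct sequences of 18 nt or longer whose every annotation part begins with tRNA-Met. The rule found 749 sequences with 1669336 reads, out of 1442059 sequences of that length, 430951 of them annotated. The deposited annotation names a single type, tRNA-Met-CAT, where CAT is the anticodon, and no name for the initiator type occurred. Reads per library had been collapsed by the authors to 1 row per sequence with a raw count. A level below is given in reads, or as CPM, the count per 1000000 reads of 18 nt or longer in that library.

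Libraries fell into Mdd (n = 2) and control (n = 2), all of strain C57BL, with no genotype, allele or age in the labels. Mdd mice received randomly changing daily stressors that included an empty cage, cage tilt, damp bedding, noise, strobe light, tube restraint, isolation and altered light cycles. Control mice were left alone except for routine care, and the series compared small RNAs between these groups. The labels do not state that libraries of a group came from separate animals, and the spread behind each p-value may therefore be technical.

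The protocol in the labels names sperm, whereas the tissue fields name testis and testicular cells. All 6 listed miRNAs of meiotic and later germ cells were read in every library. They made up 34.9% and 26.2% of miRNA reads in Mdd replicates 1 and 2, against 31.7% and 14.3% in control replicates 1 and 2. Control replicate 2 had the lowest share. All listed markers of striated muscle, smooth muscle, blood and epithelium were also present in every library. Striated muscle miRNAs held 0.149% and 0.0989% of miRNA reads in Mdd replicates 1 and 2, against 0.385% and 6.53% in control replicates 1 and 2, and blood miRNAs 5.96% and 5.03% in Mdd, against 4.67% and 0.598% in control, so control replicate 2 stood apart in both lists. Their part in the values below was not tested. Reads of 18 nt or longer numbered 23748630 and 23806805 in Mdd replicates 1 and 2, against 9706895 and 16763277 in control replicates 1 and 2.

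Cells use separate tRNAs for methionine at the start of a protein and at later positions. The initiator tRNA enters the ribosome with the small subunit, and elongator tRNAs insert methionine inside the growing chain. Mature mammalian sperm hold few intact tRNAs and many tRNA fragments, most of them from the 5′ part of the molecule, and such fragments have been studied as carriers of paternal exposure in mice. Stress-activated ribonucleases such as angiogenin cut in the anticodon loop and leave long fragments, while shorter 5′ fragments end in or near the D arm. A tRNA ends in CCA, which is not encoded in mammalian tRNA genes and is added by an enzyme.

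The 2 most read families of 5′ end sequences, grouped by their first 10 bases, were extended through overlapping tRNA-Met reads into full-length backbones. These are called elongator and initiator below, and all but 0.22% of reads lie on them. The initiator backbone is shown first because it holds most of the distinct fragments. The capitals mark the CAT anticodon, and the sequence is in DNA letters as in the files.
initiator backbone: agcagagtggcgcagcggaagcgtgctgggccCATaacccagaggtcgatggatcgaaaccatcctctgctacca
The elongator backbone is 73 nt long without its CCA and the initiator 72 nt. The initiator begins with A and carries GGG and CCC on the facing sides of its anticodon stem, features known from vertebrate initiator tRNA, and it is called initiator here on that ground. The files themselves do not separate the types. Joining needed an overlap of 14 bases.

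The initiator 5′ fragments with most reads at 25, 30 and 31 nt, and the most read initiator fragment that carries a 3′ or CCA mark, are printed next, since the results turn on them.
initiator 25 nt: agcagagtggcgcagcggaagcgtg
initiator 30 nt: agcagagtggcgcagcggaagcgtgctggg
initiator 31 nt: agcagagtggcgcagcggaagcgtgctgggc
initiator 3′ fragment: atggatcgaaaccatcctctgctaCC
All but the 3′ fragment start at the first base of the tRNA. The capitals mark the added bases of the CCA tail in the 3′ fragment. A RefSeq table names 16 tRNA-Met genes, so a fragment shared by several gene copies was not assigned to any of them.

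tRNA-Met fragments were among the 5 most read tRNA groups in all 4 libraries. They took 10.3% and 9.43% of tRNA reads in Mdd replicates 1 and 2, against 8.21% and 11.3% in control replicates 1 and 2. The Mdd mean was 9.88% ± 0.634 and the control mean 9.76% ± 2.20 (SD, n = 2 each), and both Mdd values lay between the control values. The difference of 0.118 percentage points was smaller than the spread within either group (exact two-sided permutation test, p = 1.0, where 2 against 2 libraries cannot go below 0.33). With reads of 15 to 17 nt included, the groups did not overlap and the difference was 2.79 percentage points (exact permutation p = 0.33). Of all reads of 18 nt or longer, tRNA-Met held 2.35% and 1.82% in Mdd, against 1.77% and 3.01% in control, which overlap as well. Mdd minus control was -0.30 percentage points, and 0.168 with reads of 15 to 17 nt included. The 95% Wilson interval of the share in Mdd replicate 1 ran from 2.348% to 2.36% and covers counting error only, since reads are not independent molecules. Among 21 tRNA groups by amino acid, tRNA-Met ranked 4th and 5th in Mdd replicates 1 and 2 and 5th and 4th in control replicates 1 and 2.

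A single sequence dominated. The 24 nt elongator fragment made up 79.7% of all tRNA-Met reads and ranked 2nd among all sequences of 18 nt or longer in each library. It had 459316 and 341312 reads in Mdd replicates 1 and 2, against 111233 and 418781 in control replicates 1 and 2. In CPM it stood at 19341 and 14337 in Mdd, against 11459 and 24982 in control, so the Mdd libraries lay between the control ones. Its log2 fold change, Mdd over control, was 0.20 (SE 1.94, adjusted p = 1.0 with edgeR's quasi-likelihood test), and -0.26 without control replicate 1. The fragment stops 9 nt before the anticodon.

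The concentration of reads on few sequences held for the whole group. The 178 sequences read in all 4 libraries carried 98.9% of the reads. Another 313 sequences were read in 1 library alone and carried 0.227%. Only 41 sequences reached 1000 reads in total, while 215 had 10 reads or fewer. Lengths covered 18 to 45 nt, and 45 nt was the longest length deposited. At the lower bound of the rule, tRNA-Met reads of 18 nt numbered 7618 and 4753 in Mdd replicates 1 and 2, against 4303 and 6982 in control. Just outside it, reads of 17 nt numbered 1 and 197 in Mdd, against 2688 and 7307 in control. RNA of 18 to 40 nt had been selected for sequencing, per the labels' protocols, and reads of 15 to 17 nt were nearly missing from the Mdd libraries. The rule leaves those reads out. Differences that turned with them are given with those reads included as well, as are some, not all, of those that grew.

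**Figure D1:**
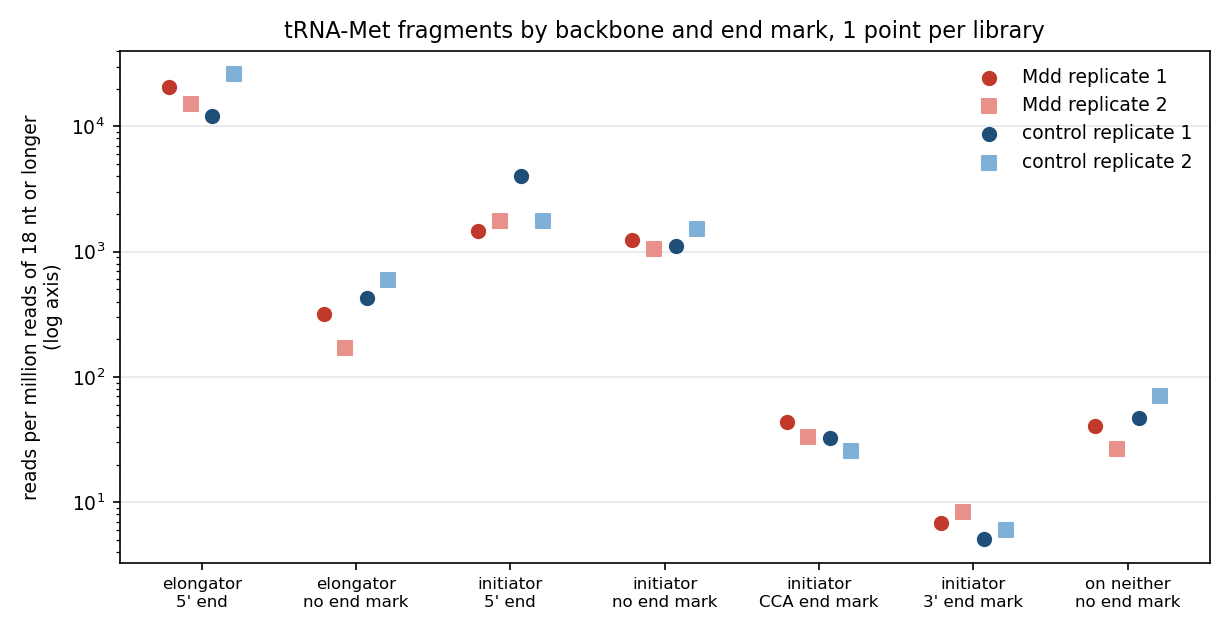
Level of tRNA-Met fragments in CPM over reads of 18 nt or longer (log axis), grouped by backbone and by the deposited end mark, with 1 point per library. Elongator 5′ end fragments run from 12059 to 26128 CPM, and control replicate 1 is lowest there and highest for initiator 5′ end fragments.

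Fragments marked as 5′ ends made up most reads. Their share was 93.0% and 92.9% in Mdd replicates 1 and 2, against 90.9% and 92.7% in control replicates 1 and 2. The groups did not overlap, the means differing by 1.17 percentage points (exact two-sided permutation p = 0.33, the smallest possible). The difference was 0.254 percentage points without control replicate 1 and 4.80 with reads of 15 to 17 nt included. Of 7 measures planned, this 1 did not overlap between groups, and of 19 in all, with those added later, 8 did not. Reads without an end mark came next, with 6.78% and 6.85% in Mdd, against 8.89% and 7.19% in control.

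The elongator backbone held 85.5% of tRNA-Met reads on 109 sequences. Its level was 20738 and 15330 CPM in Mdd replicates 1 and 2, against 12486 and 26717 CPM in control replicates 1 and 2. Control libraries took both the lowest and the highest place. The mean was 18034 ± 3824 CPM in Mdd and 19601 ± 10063 CPM in control (SD, n = 2 each; exact permutation p = 1.0). The direction of that difference turns when control replicate 2 or Mdd replicate 2 is left out, with Mdd minus control at 5548 and 1137 CPM. It turns also with reads of 15 to 17 nt included, to 2951 CPM.

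Elongator reads were uniform in shape. Between 96.6% and 98.9% of them started at position 1 in each library. Of those that did, the 24 nt fragment made up 94.7% and 94.6% in Mdd replicates 1 and 2, against 95.03% and 95.6% in control replicates 1 and 2. The groups did not overlap, with a difference of -0.67 percentage points (exact permutation p = 0.33). With reads of 15 to 17 nt included the difference turned to 1.71 percentage points. The 25 nt fragment held 3.99% and 2.65% in Mdd, against 3.83% and 2.94% in control. The 19 nt fragment held 0.689% and 2.35% in Mdd, against 0.543% and 0.962% in control. Mdd replicate 2 was the highest of the 4 for that fragment, with 8469 reads, where the other libraries had 636 to 4212.

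In CPM the 25 nt elongator fragment stood at 815 and 402 in Mdd, against 462 and 769 in control (log2 fold change 0.23, SE 0.87), so the groups interleave. The 19 nt fragment stood at 141 and 356 in Mdd, against 65.5 and 251 in control (1.15, SE 1.14). Both had an adjusted p of 1.0 with edgeR. Without Mdd replicate 2 the 19 nt fragment turned to a log2 fold change of -0.22.

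**Figure D2:**
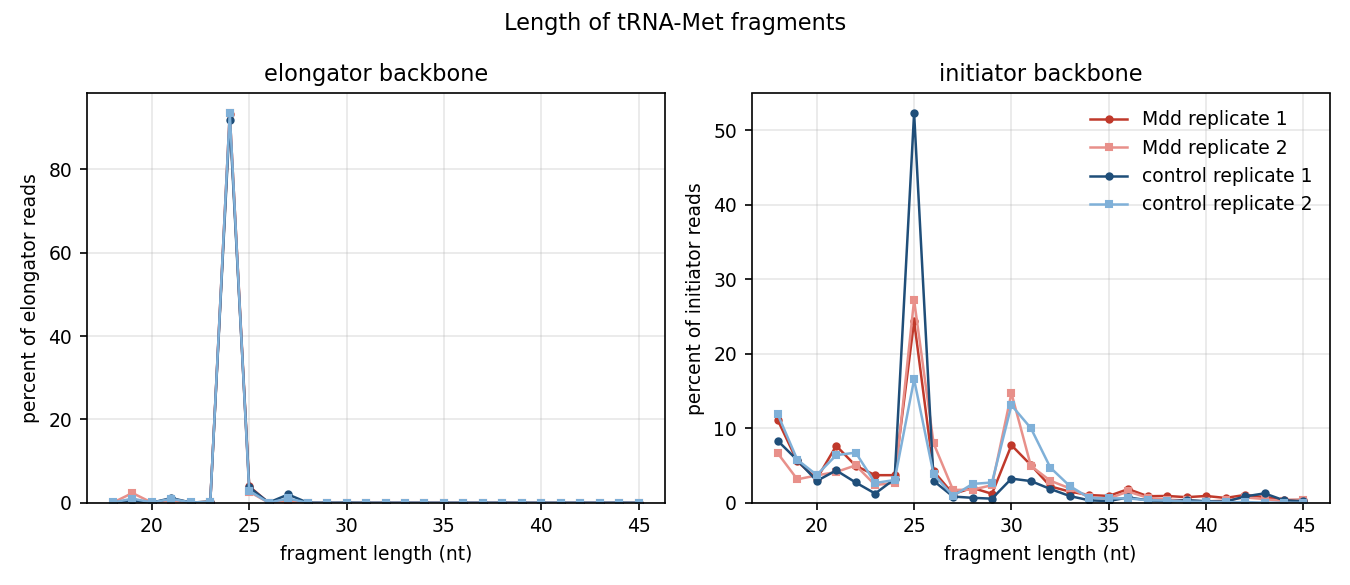
Length distribution of reads on the elongator (left) and initiator (right) backbone, as percent of that backbone's reads in each library. Elongator reads form a single peak at 24 nt in all 4 libraries, while initiator reads peak at 25 nt and also gather at 18 and 30 nt, with control replicate 1 highest at 25 nt and lowest at 30 nt.

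The initiator backbone held 14.3% of the reads but 531 of the 749 sequences, so its fragments were more varied. Its level was 2759 and 2858 CPM in Mdd replicates 1 and 2, against 5185 and 3298 CPM in control replicates 1 and 2. Mdd values were lower than both control values, by 1433 CPM between means (2808 ± 69.8 in Mdd, 4242 ± 1335 in control, SD, n = 2 each; exact permutation p = 0.33, the smallest possible). The difference was -490 CPM without control replicate 1. Of tRNA-Met reads placed on a backbone, the initiator took 11.7% and 15.7% in Mdd, against 29.3% and 11.0% in control. Control replicate 1 stood apart with the highest share. Mdd minus control was -6.44 percentage points with all libraries and 2.74 without control replicate 1.

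Reads that began at the first base made up 53.4% and 61.8% of initiator reads in Mdd replicates 1 and 2, against 78.0% and 53.4% in control replicates 1 and 2. The 25 nt initiator fragment was the most read of them, with 14822 and 17491 reads in Mdd, against 25979 and 8679 in control. In CPM it stood at 624 and 735 in Mdd, against 2676 and 518 in control (log2 fold change -0.82, SE 1.22, edgeR's adjusted p = 1.0). Control replicate 1 alone was high, and without it the log2 fold change was 0.78. The 30 nt fragment had 4159 and 9028 reads in Mdd, against 1262 and 5984 in control (0.67, SE 1.04), and turned to -0.53 without Mdd replicate 2. The 31 nt fragment had 2629 and 1874 reads in Mdd, against 959 and 3991 in control (-0.53, SE 0.78), and turned to 0.27 without control replicate 2. Both also had an adjusted p of 1.0.

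The stops of initiator 5′ fragments differed most between the control libraries. Fragments of 25 nt held 42.4% and 41.6% of initiator 5′ end reads in Mdd, against 66.2% and 29.4% in control. Fragments of 30 to 33 nt, which stop just before or at the first anticodon base, held 25.004% and 32.1% in Mdd, against 8.86% and 45.1% in control. For both measures the Mdd libraries lay between the control libraries (exact permutation p = 1.0 for each). The 30 nt fragment stops 2 nt before the anticodon and the 31 nt fragment 1 nt before it. The 25 nt fragment stops 7 nt before it.

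**Figure D3:**
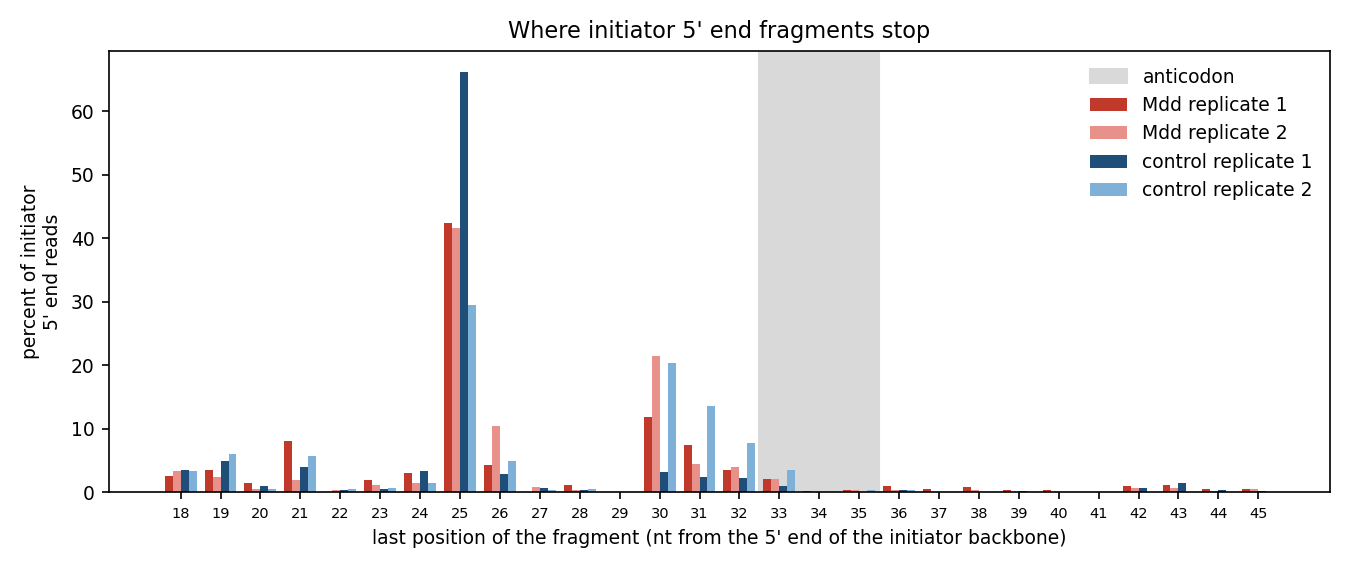
Last position of fragments that start at the first base of the initiator backbone, as percent of such reads in each library, with the anticodon shaded. The bars gather at position 25 and at 30 to 33, and control replicate 1 has 66.2% at position 25, against 29.4% in control replicate 2.

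No initiator stop fell on the last base of a TGG, an ending that was rare in whole libraries too. The initiator backbone holds TGG at positions 27 to 29, where 0 reads stopped, 9997 stopped just before it and 117880 passed through it. It holds TGG again at positions 50 to 52, with 0 reads stopping there and 3831 just before. No tRNA-Met read of any library ended in TGG, and of all reads of 18 nt or longer 0.0392% and 0.0377% did in Mdd, against 0.061% and 0.102% in control. The 26 nt initiator fragment, which stops at that point, held 4.36% and 10.4% of initiator 5′ end reads in Mdd, against 2.81% and 4.96% in control.

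Starts inside the initiator backbone were spread over many positions. After position 1 the most used were 13, 14 and 16. Position 13 had 4.05% and 4.69% of initiator reads in Mdd, against 2.40% and 4.48% in control. Position 14 had 5.54% and 2.80% in Mdd, against 3.09% and 3.60% in control, and position 16 had 6.58% and 1.36% in Mdd, against 2.31% and 3.31% in control. The Mdd libraries were apart from each other at positions 14 and 16, on either side of the control values. The most read internal initiator sequence, 18 nt long from positions 16 to 33, had 2803 and 433 reads in Mdd, against 847 and 1504 in control.

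Few elongator reads started elsewhere than position 1. The next most used starts were positions 28, 4 and 34. The internal 27 nt elongator fragment runs from position 28 to 54 and holds the whole anticodon. It had 2844 and 1290 reads in Mdd replicates 1 and 2, against 2430 and 4667 in control replicates 1 and 2. In CPM it stood at 120 and 54.2 in Mdd, against 250.3 and 278 in control, and the groups did not overlap (86.97 ± 46.4 in Mdd, 264 ± 19.8 in control, SD, n = 2 each). Its log2 fold change was -1.37 (SE 0.71), and it did not pass edgeR's test (adjusted p = 0.585, lower in 2 of 2 Mdd libraries). The log2 fold change stayed between -1.63 and -1.19 with any 1 library left out. Of all tested sequences, 30.3% did not overlap on the lower side in CPM.

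The share of reads that hold the whole anticodon was lower in both Mdd libraries on the elongator and higher in both on the initiator. On the elongator they were 0.881% and 0.513% of reads in Mdd, against 2.70% and 1.43% in control. Of these elongator reads, 15894 in all, 11231 were the internal 27 nt fragment above, so the measure largely restates that sequence. On the initiator, reads with the whole anticodon were 16.6% and 10.1% in Mdd, against 7.46% and 7.22% in control. These are shares of initiator reads, whose level was itself lower in both Mdd libraries. It was 2759 and 2858 CPM in Mdd, against 5185 and 3298 CPM in control. The level of whole-anticodon reads in CPM was not compared. Neither share overlapped between groups, and both gave an exact permutation p of 0.33, the smallest possible. Mdd minus control was 6.005 percentage points on the initiator, against 2.76 without Mdd replicate 1, and -1.37 on the elongator, against -0.73 without control replicate 1. Mean length of initiator reads was 25.7 and 26.3 nt in Mdd, against 25.03 and 25.5 nt in control, which also do not overlap, and that of elongator reads 23.99 and 23.9 nt in Mdd, against 24.05 and 23.97 nt in control. With reads of 15 to 17 nt included, Mdd minus control was 2.74 nt on the initiator, against 0.789 nt without them, and turned on the elongator to 0.174 nt. Mean length over all reads of 18 nt or longer was 26.5 and 26.9 nt in Mdd, against 26.98 and 25.99 nt in control, and overlapped. These measures were chosen after their values were seen.

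**Figure D4:**
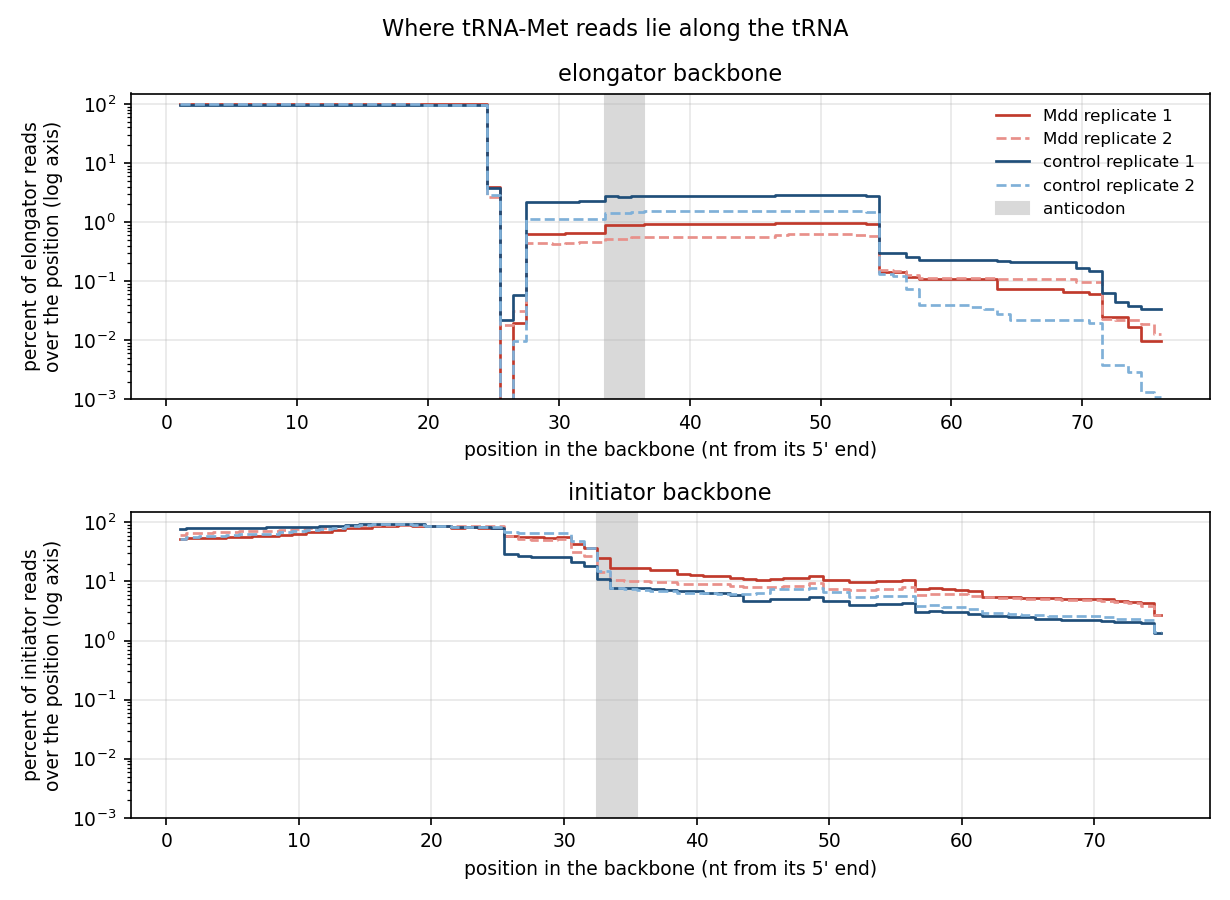
Percent of elongator (top) and initiator (bottom) reads that lie over each position of the backbone (log axis; positions under 0.001% are not drawn), with the anticodon shaded. Elongator reads drop after position 24 and return at position 28. Past the anticodon, both Mdd lines run above both control lines at every position of the initiator backbone, as shares of initiator reads. The level of initiator reads was 2759 and 2858 CPM in Mdd, against 5185 and 3298 CPM in control. Coverage in CPM was not compared. With a minimum length of 15 nt, Mdd minus control for initiator reads reaching the 3′ end turned from 2.50 to -1.65 percentage points. For initiator reads holding the whole anticodon it was 7.08 percentage points at that minimum.

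The 3′ part of tRNA-Met was read mostly from the initiator. Reads were counted that stop anywhere from 1 base before the last base of the gene to the end of the added CCA. Of these the initiator had 3253 and 3228 in Mdd replicates 1 and 2, against 1095 and 1405 in control replicates 1 and 2. That was 4.96% and 4.75% of initiator reads in Mdd, against 2.18% and 2.54% in control, and 137 and 136 CPM in Mdd, against 113 and 83.8 CPM in control. Neither overlapped between groups (exact permutation p = 0.33 for both). With reads of 15 to 17 nt included, both differences turned, to -1.65 percentage points and -127 CPM. The elongator had 121 and 84 such reads in Mdd, against 75 and 17 in control.

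The deposited end marks fall short of the tRNA's own end. On both backbones every CCA mark sat on a sequence stopping at the second base of the CCA. Each 3′ end mark sat on a sequence stopping a base before the last one of the gene. Initiator reads with the complete CCA carried no mark and numbered 1796 and 1860 in Mdd, against 689 and 787 in control, while CCA-marked ones numbered 1046 and 788 in Mdd, against 317 and 430 in control. Shares by mark therefore count complete 3′ ends among the unmarked reads. The 3′ and CCA marks together held 0.223% and 0.244% of tRNA-Met reads in Mdd, against 0.236% and 0.109% in control, which overlap. Mdd minus control was 0.0608 percentage points, and -0.179 with reads of 15 to 17 nt included.

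The most read marked 3′ sequence was the 26 nt initiator 3′ fragment. It had 307 and 203 reads in Mdd, against 45 and 102 in control, or 12.9 and 8.53 CPM in Mdd, against 4.64 and 6.09 CPM in control. The groups did not overlap, and it did not pass the test (log2 fold change 1.29, SE 0.78, edgeR's adjusted p = 0.773). A 29 nt form from position 46 to 74 had a negative log2 fold change, -1.05 (SE 1.12), with 43 and 179 reads in Mdd, against 149 and 222 in control. Its groups did not overlap either, with 1.81 and 7.52 CPM in Mdd, against 15.3 and 13.2 CPM in control. A 19 nt form from position 56 to 74 had 243 and 158 reads in Mdd, against 49 and 9 in control, and did not overlap, being higher in Mdd. The remaining 3 of the 6 most read marked 3′ sequences had between 0 and 91 reads in any library. Their CPM did not overlap between groups. A 30 nt form from position 45 to 74 and a 26 nt form from 46 to 71 were lower in Mdd. A 21 nt form from 54 to 74 was higher. Such separation was common, with 7.84% of all tested sequences not overlapping on the higher side and 30.3% on the lower.

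The 109 sequences on neither backbone held 0.22% of reads. Of them 48 differed from a backbone at a single base, 26 at 2 bases and 35, with 769 reads, at 3 or more. A base change on the elongator was the only difference in 29 sequences, with 667 and 338 reads in Mdd, against 258 and 829 in control. Another 23 sequences with 442 reads carried it beside a further change. A longer sequence from position 34 to 76 carried it among 4 differences, and the shorter ones do not reach all those positions. Whether these reads come from a further tRNA-Met type was not tested. In joining, 89.9% of overlapping reads had the elongator's base at that position. On the initiator, G23A accounted for 16 of the 109 sequences, with 26 and 26 reads in Mdd, against 12 and 9 in control. Positions are counted from 1 at the 5′ end of the backbone, with the backbone's base first.

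Across all annotated sequences of 18 nt or longer, 79093 passed the filter on low counts, among them 326 of the 749 tRNA-Met sequences, with 99.6% of the reads. With edgeR's quasi-likelihood test and Benjamini-Hochberg adjustment, 0 of the 326 passed 0.05, beside 0.0% of all sequences tested. The lowest adjusted p of a tRNA-Met sequence was 0.194. At an unadjusted p under 0.05 there were 18, or 5.52%, beside 13.3% of all sequences, and 17 of the 18 had no read in either library of 1 group. DESeq2 called 1 of the 326, beside 0.25% of all. Without Mdd replicate 1, 4 tRNA-Met sequences passed edgeR's test, beside 1.47% of all, and without Mdd replicate 2, 2 passed, beside 0.14% of all. Fold changes were positive for 194 and negative for 132 of the tested tRNA-Met sequences, with a median log2 of 0.26, against -0.07 over all sequences. With library size only the median of tRNA-Met sequences was -0.07, against -0.37 over all.

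Levels in CPM did not overlap between groups for 38 tested tRNA-Met sequences on the higher side, or 11.7%, beside 7.84% of all sequences, and for 61 on the lower side, or 18.7%, beside 30.3% of all. Of the 41 sequences with at least 1000 reads, 17 had positive and 24 negative fold changes, between -1.54 and 1.99, with a lowest adjusted p of 0.424 with edgeR.

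The sequences of lowest p were rare ones. On the positive side an initiator sequence from position 12 to 38 had 86 and 84 reads in Mdd, against 0 and 0 in control (unadjusted p = 0.0182, adjusted p = 0.28 with edgeR). An initiator sequence from position 14 to 36, the sequence called by DESeq2, had 236 and 24 reads in Mdd, against 0 and 0 in control (adjusted p = 0.0483 with DESeq2, 0.296 with edgeR). A 20 nt sequence on neither backbone had 130 and 26 in Mdd, against 0 and 0. On the negative side, 3 sequences had 0 and 0 reads in Mdd, against 6 and 9, 6 and 16, and 12 and 10 in control. A count of 0 allows up to 3 reads, or 0.126 CPM in either Mdd library and 0.309 and 0.179 CPM in control replicates 1 and 2, for counting error only.

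**Figure D5:**
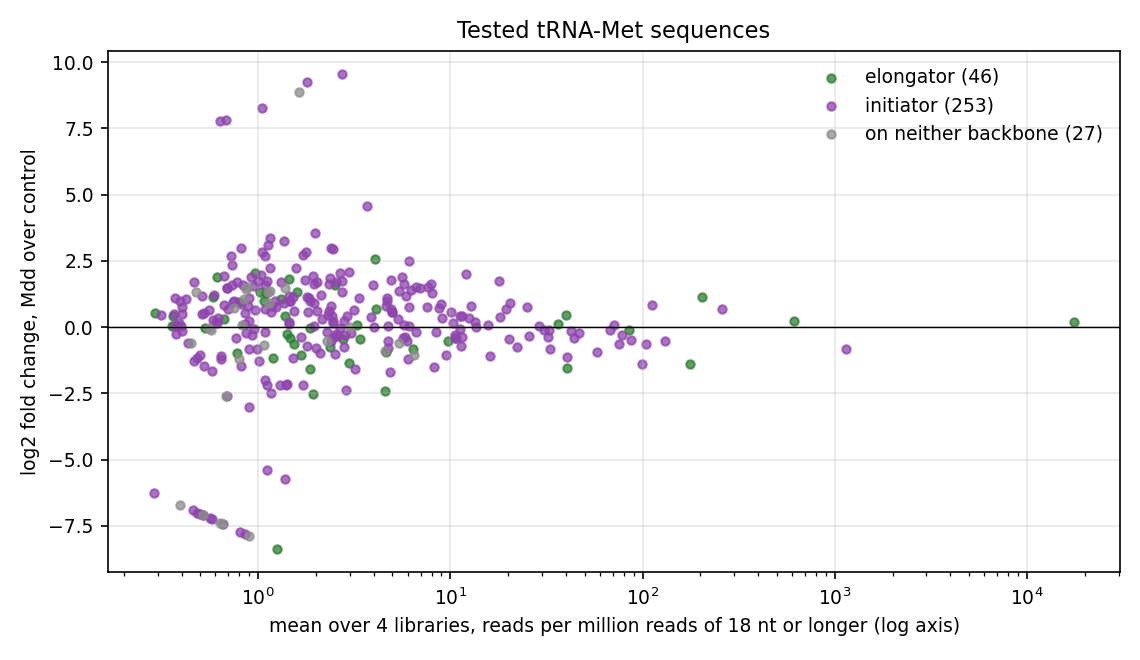
Log2 fold change (Mdd over control, edgeR) of the 326 tested tRNA-Met sequences against their mean level over 4 libraries in CPM over reads of 18 nt or longer (log axis), coloured by backbone. The 24 nt elongator fragment, farthest right, lies at 0.20, and the values farthest from 0 belong to rare sequences, including the 22 with no read in either library of 1 group, whose fitted values depend on the prior count and are no bounds.

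Summing reads per annotation label gave 4 tRNA-Met labels among 843 tested, and 0 passed with edgeR (0.0% of all labels passed) or with DESeq2, which called 1.78% of all labels. At an unadjusted p under 0.05, 0 of the 4 passed, beside 8.9% of all labels. The log2 fold change was 0.28 (SE 0.59) for 5′ ends, 0.05 (SE 0.55) for unmarked reads, 0.83 (SE 0.75) for CCA marks and 0.75 (SE 1.06) for 3′ ends, with adjusted p-values between 0.934 and 0.996 in edgeR's test. With reads of 15 to 17 nt included, the log2 fold change of 5′ ends was 0.74, and those of unmarked reads and CCA marks turned to -0.0409 and -0.24. Split by backbone, elongator 5′ ends had 0.37 (SE 0.61) and initiator 5′ ends -0.38 (SE 0.67), which turned to 0.0159 with reads of 15 to 17 nt. Unmarked reads had -0.64 (SE 0.58) on the elongator and 0.28 (SE 0.56) on the initiator. None of the 9 tested sums by backbone and mark passed (lowest adjusted p = 0.926 with edgeR), 0 had an unadjusted p under 0.05, beside 9.08% of all sums, and DESeq2 called 0 of the 9, beside 1.77% of all sums. In edgeR 0.0% of all 848 sums passed. No sequence or label of the other 20 tRNA groups passed the same edgeR fits.

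Among the chosen groups tRNA-Lys, tRNA-Glu and tRNA-Gly, tRNA-Met was nearest to tRNA-Lys in both measures. The comparison left out tRNA-Val, which held 16.8% and 8.09% of tRNA reads in Mdd, against 16.1% and 28.8% in control. The 5′ end share was 93.0% and 92.9% in Mdd and 90.9% and 92.7% in control for tRNA-Met. For tRNA-Lys it was 95.9% and 94.5% in Mdd and 96.0% and 96.9% in control, higher in 4 of 4 libraries by a mean of 3.45 percentage points. For tRNA-Glu it was 71.8% and 36.7% in Mdd and 72.3% and 80.4% in control, and Mdd replicate 2 stood apart. For tRNA-Gly it was 11.0% and 6.90% in Mdd and 14.3% and 32.7% in control. tRNA-Met exceeded tRNA-Gly by 76.1 and tRNA-Glu by 27.1 percentage points on average, again in 4 of 4 libraries.

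Fragment length was nearly the same in all libraries for tRNA-Met. Its mean was 24.2 and 24.3 nt in Mdd and 24.3 and 24.1 nt in control. Mdd minus control was 0.0051 nt, and 0.584 nt with reads of 15 to 17 nt included. tRNA-Lys averaged 24.4 nt over the 4 libraries, tRNA-Gly 25.6 nt and tRNA-Glu 29.2 nt, and tRNA-Met was shorter in 4 of 4 libraries in each case. All 6 comparisons of share and length gave an exact two-sided paired permutation p of 0.13, the smallest that 4 libraries allow, and 0.13 after Benjamini-Hochberg adjustment.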

How the data were processed

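Small RNA reads of 2 Mdd and 2 control mouse libraries were analysed. Per the file headers, the authors deposited raw read counts per distinct sequence of 15 to 45 nt, with its length, a genome match mark and an annotation. Per the submitters' processing notes, mm9 and DESeq2 were used; for the aligner, trimming and annotation, the sources used here name none. Tables were joined by sequence, and a sequence took the annotation of the first library that gave one; tRNA-Met annotations were the same in every file.

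Counts of annotated sequences of 18 nt or longer, and their sums per label, were tested with edgeR 4.0.16 (quasi-likelihood, TMM, filterByExpr, two-sided, Benjamini-Hochberg, threshold 0.05) in R 4.3.3. SE is the log2 fold change over the root of F. DESeq2 1.42.0 was an alternative. The fit was run on simulated counts with a set spread not estimated from these data, which does not measure its power here. Shares were compared by exact permutation with scipy 1.17.1, in Python 3.11.15 with pandas 2.3.3.

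Backbones were joined from members by majority over overlaps of 14 bases. Named sequences were the 6 most read per end class, the 3 of lowest p per direction, since fewer than 3 passed, and the 4 most used starts per backbone. Members and lists were chosen with earlier results of these data known, and the backbone measures after seeing the values. Precision is limited by 2 libraries per group; intervals and the floor of 3 counts cover counting error only. The elongator sequence is not reported here.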

Additional observations from a re-analysis of the deposited data

How the results depend on the processing

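The values were recomputed with other scalings, DESeq2, other filters, robust dispersion, a minimum of 15 nt, genome-matched sequences, tRNA sequences only, a replicate block, annotation as deposited, another tRNA denominator and each library left out. Annotation as deposited and the other tRNA denominator were not applied to the fits, and labels were not fitted with tRNA sequences only. The number of tRNA-Met labels past the threshold was 0 in every setting where labels were fitted. That of sequences was 0 with all 4 libraries, except 1 with DESeq2. With 1 library left out its group rests on a single library, so the number of sequences called is not given. Calls arose only without Mdd replicate 1 or 2. All lay on the initiator, and 3 of them were unread in Mdd replicate 1 and both control libraries. Another, from position 12 to 31 and lower without Mdd replicate 2, had 0 and 76 reads in Mdd, against 31 and 220 in control. The cause was not tested. The median log2 fold change of all sequences was -0.07 with TMM and 0.05 with RLE. Unscaled, it was -0.37 on annotated reads of 18 nt or longer and -0.42 on all reads of that length.

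With reads of 15 to 17 nt included, Mdd minus control turned to 0.168 percentage points for the tRNA-Met share of all reads, -0.179 for the 3′ end share, 1.71 for 24 nt among elongator 5′ ends, 0.174 nt for elongator length and 2951 CPM for the elongator, and to -1.65 percentage points and -127 CPM for initiator reads at the 3′ end. Log2 fold changes turned to -0.24 for the CCA label, -0.0409 for unmarked reads and 0.0159 for initiator 5′ ends. Unscaled on annotated reads of 18 nt or longer they turned to -0.35 for unmarked reads, -0.13 for the 5′ end label and -0.0464 for elongator 5′ ends. They also turned to -0.14 for unmarked initiator reads and -0.058 for the 24 nt elongator fragment. Unscaled on all reads of that length these were -0.40, -0.18, -0.10, -0.19 and -0.11, and the 25 nt elongator fragment -0.0163. Unmarked reads had -0.10 with a mean CPM of at least 10. With tRNA sequences only the 24 and 25 nt elongator fragments had -0.13 and -0.0863.

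With each library left out, Mdd minus control ran from -1.43 to 1.67 percentage points for the share of tRNA reads, -0.92 to 0.316 for that of all reads, -0.0027 to 0.124 for the 3′ end share, -0.91 to 1.02 for reads of 30 to 36 nt and -2.25 to 16.5 for the elongator family among 5′ ends. It ran from -0.098 to 0.108 nt for mean length, -15.6 to 2.74 percentage points for the initiator share, -24.2 to 12.6 and -16.5 to 19.7 for initiator 5′ ends of 25 and of 30 to 33 nt, and -8683 to 5548 CPM for the elongator. Log2 fold changes ran from -0.16 to 0.17 for unmarked reads, -0.0755 to 0.59 for the 5′ end label, -0.11 to 0.91 for elongator and -0.91 to 0.39 for initiator 5′ ends, -0.26 to 0.89 for the 24 nt, -0.0856 to 0.65 for the 25 nt and -0.22 to 2.48 for the 19 nt elongator fragment, and -1.55 to 0.78, -0.53 to 1.63 and -1.02 to 0.27 for the 25, 30 and 31 nt initiator fragments.

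Titles number the libraries, yet same-numbered ones did not deviate together (r = 0.011 over 79093 sequences), so the numbers were not taken as pairs. With the replicate block 13 of all sequences, 0 tRNA-Met sequences and 0 tRNA-Met labels passed.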
